A study of Saccharomyces cerevisiae with 5 samples.

Results

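The yeast genes named MRPL, MRPS or MRP followed by a digit were followed across 3 strain comparisons made under salt. The members are the nuclear genes with such a standard symbol whose reading frame has a probe on the array, and 56 of 6388 gene probes met that rule. By the ribosomal protein names listed as synonyms in the R64 gene table, 38 belong to the large and 17 to the small subunit of the mitochondrial ribosome. MRP8 is listed with no ribosomal protein name and was kept because of its symbol, although it is not known as a mitochondrial ribosomal protein.

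Expression was measured on 5 two-colour oligonucleotide arrays of Saccharomyces cerevisiae, each carrying a tested strain in one dye and its reference in the other. The strain bdf1Δ+HAL2, a bdf1Δ deletion strain with HAL2 that the series title describes as overexpressed, was set against bdf1Δ on 2 arrays with exchanged dyes. The double deletion strain bdf1Δhda1Δ was also set against bdf1Δ on 2 such arrays. The strain bdf1Δ was set against W303, the laboratory strain used as wild type, on 1 array with bdf1Δ in Cy5. The labels describe 2 hybridizations with reversed dyes for a comparison, but the exchanged array of bdf1Δ over W303 was not analysed here, so dye effects do not cancel in its ratios. All cultures had received 0.5 mol/L NaCl for 45 min, so no unstressed strain was compared, and bdf1Δ+HAL2 and bdf1Δhda1Δ both lack BDF1 as their reference does. How HAL2 was expressed, and from how many clones the strains came, is not given in the sources used here. Each comparison has 1 biological replicate, because the exchanged arrays hold the same pair of samples, and no p-value was computed. The SD given with a value comes from the 2 arrays of a pair or, on the single array of bdf1Δ over W303, from the repeat spots of the gene. It covers technical variation only. On the single array it does not cover dye effects or the choice of normalization.

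The mitochondrial ribosome translates the few proteins encoded by mitochondrial DNA, which in yeast are mainly core subunits of cytochrome bc1, cytochrome c oxidase and ATP synthase. Its RNAs are mitochondrial, while almost all of its proteins are encoded in the nucleus, made in the cytosol and imported. Some of these proteins have counterparts in all ribosomes (names beginning with u), some in bacterial ribosomes only (names beginning with b), and others belong to mitochondrial ribosomes alone (names beginning with m). In yeast the genes of this group are often expressed together, and they are known to respond to carbon source and to the growth rate. Among the members 24 were universal, 13 bacterial and 18 mitochondrial in this sense.

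The deleted and the added genes were checked first. BDF1, which encodes a bromodomain protein associated with TFIID, exceeded background in none of the 3 spots in any bdf1Δ-derived channel and in 3 of 3 spots in W303. No fold is given for it, since bdf1Δ was not above background. MET22, the systematic gene table's name for HAL2, had a log2 ratio of 3.73 ± 0.15 in bdf1Δ+HAL2 over bdf1Δ. HDA1, a histone deacetylase gene, exceeded background in no spot in bdf1Δhda1Δ and was not measured. In bdf1Δ on the same arrays it did so in 0 of 3 spots on array 1 and 2 of 3 on array 2, so this check is weak. The bdf1Δ over W303 array stood apart from the others. The median log2 ratio of its spots was −1.84 before normalization, and 35.8% of the variance of the normalized ratios lay between its 48 printing blocks, against 3.18% to 10.7% on the other arrays. Ratios on that array are relative to its typical gene. With 1 array in 1 dye orientation, strain, dye, labelling and amount of RNA cannot be told apart there, nor can less RNA per cell and fewer cells.

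A gene needed 2 or more usable spots out of 3 on every array of a comparison to count as measured. That left 46 members in bdf1Δ+HAL2 over bdf1Δ (82.1%, against 66.8% of all gene probes). It left 19 members in bdf1Δhda1Δ over bdf1Δ (33.9%, against 32.5%) and 45 members in bdf1Δ over W303 (80.4%, against 57.7%). Altogether 51 members were measured somewhere and 19 in all 3 comparisons. The 5 members measured in no comparison were MRPS5, MRPL11, MRPL25, MRPS35 and MRP35. No spot of a member was saturated on any array.

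In bdf1Δ+HAL2 over bdf1Δ, no member was past 2-fold in either direction on both arrays, and most members lay slightly below 0. Over all measured genes 0.445% were higher and 1.03% lower by that rule, so a count of 0 among 46 members is near the background. The median log2 ratio of the members was −0.13, with quartiles of −0.21 and −0.05, and 39 of 46 lay below 0. Over all 4266 measured genes the median was 0.004 and 50.7% lay above 0, against 15.2% of the members. The median was −0.13 on array 1 and −0.12 on array 2.

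After global loess the values of the 2 arrays went together less well among the members than among all genes. Of the 46 members, 22 lay below 0 on both arrays, 1 lay above 0 on both, and 23 had opposite signs. Opposite signs were found in 50% of the members and 32.1% of all genes. The correlation of the 2 arrays over the members was 0.12 (Pearson's r, n = 46), against 0.75 over all 4266 genes, and it was −0.38 over the 31 large subunit members. These points share their slides and their dyes. The members span a narrower range (SD over genes of 0.17, against 0.36 for all genes), so these correlations are not directly comparable. The median SD between arrays was 0.18 for members and 0.14 for all genes, and in 26 members the SD exceeded the size of the ratio.

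**Figure D1:**
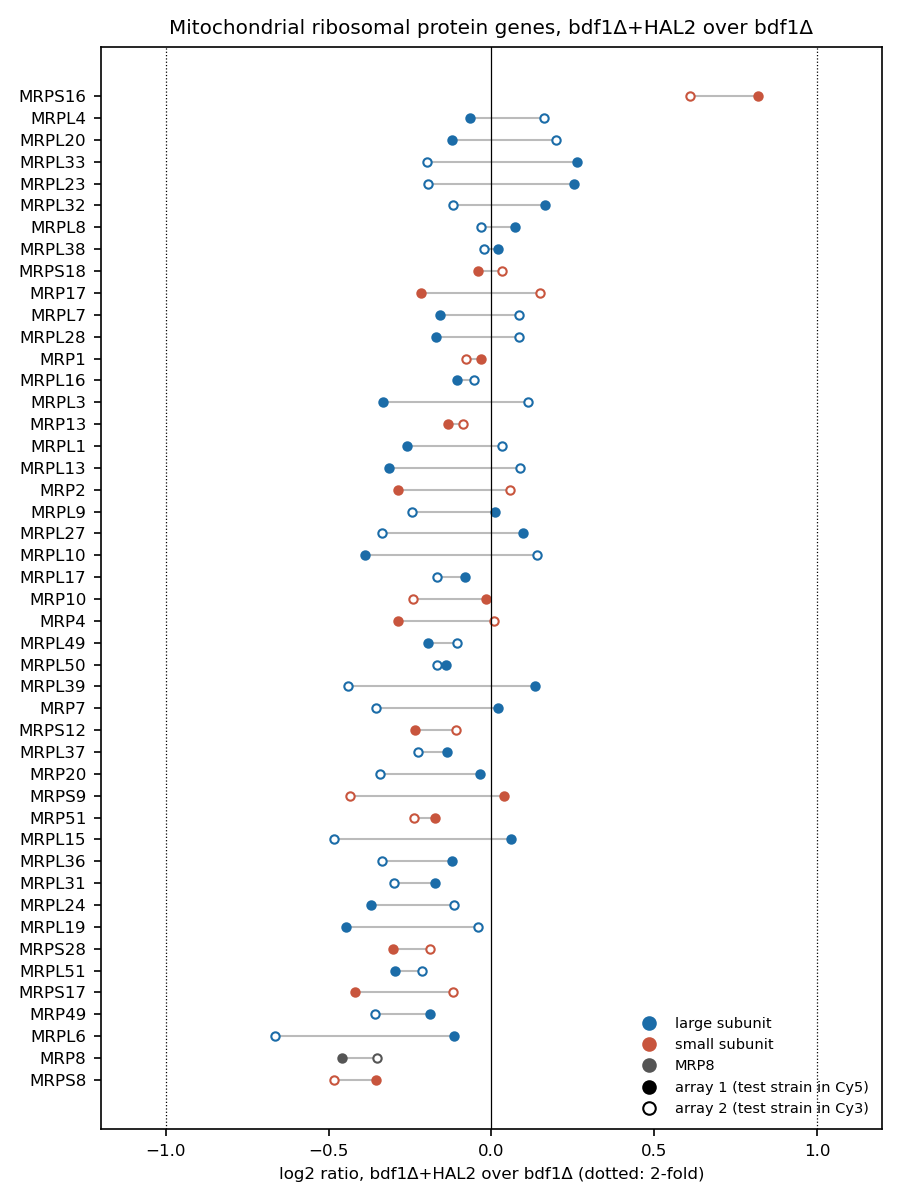
Log2 ratio of bdf1Δ+HAL2 over bdf1Δ for each of the 46 measured members, in order of the mean. Filled points are array 1 and open points array 2, joined by a line, and dotted lines mark 2-fold. MRPS16 stands to the right of the others at 0.82 and 0.61, and 39 of the 46 means lie left of 0.

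The difference between the arrays followed position on the slide, in a split of the blocks chosen after the values were seen. Array 1 minus array 2 had a median of −0.17 in the 26 members printed in blocks 1 to 24 and of 0.22 in the 20 members in blocks 25 to 48. Over all genes the same medians were −0.09 and 0.08. After print-tip loess, which normalizes each printing block on its own, they were 0.05 and 0.07 for the members. The median ratio of the members after print-tip loess was −0.12, close to that after global loess. It was −0.12 in blocks 1 to 24 and −0.14 in blocks 25 to 48.

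The agreement of the arrays was closer after print-tip loess. The correlation between arrays over the members was then 0.52, against 0.88 over all genes. The median SD was 0.09 for members and 0.08 for all genes. Of the 46 members 30 lay below 0 on both arrays, 4 above 0 on both, and 12 had opposite signs. Opposite signs were then found in 26.1% of the members and 22.3% of all genes. As shares, 65.2% of the members and 38.6% of all genes lay below 0 on both arrays. With global loess these shares were 47.8% of the members and 34.1% of all genes.

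**Figure D2:**
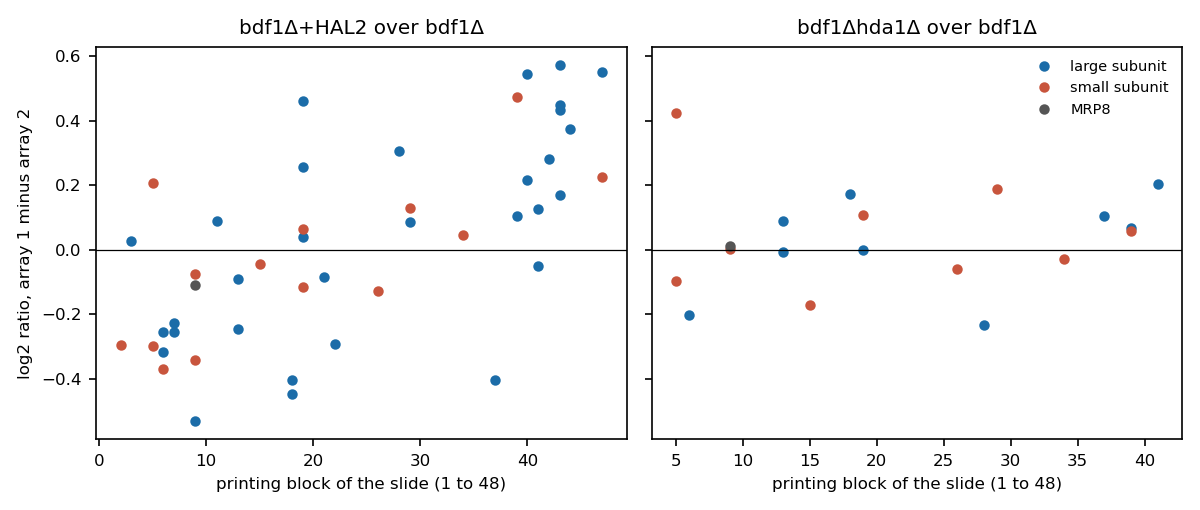
Difference of the log2 ratio between the 2 arrays of a pair (array 1 minus array 2, vertical) for each measured member against its printing block on the slide (horizontal, 1 to 48), after global loess. For bdf1Δ+HAL2 over bdf1Δ the median difference is −0.17 in blocks 1 to 24 and 0.22 in blocks 25 to 48, and for bdf1Δhda1Δ over bdf1Δ it is 0.002 and 0.06.

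Both subunits showed about the same small displacement. The median log2 ratio was −0.12 for the 31 measured large subunit members and −0.13 for the 14 small subunit members. By origin, it was −0.12 for 20 universal, −0.15 for 11 bacterial and −0.12 for 14 mitochondrial members. Leaving out MRP8 gave a median of −0.12 over the other 45 members.

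MRPS16, which encodes the small subunit protein bS16m, was the member farthest above 0. Its net intensity was 2269 in bdf1Δ+HAL2 and 970.5 in bdf1Δ on array 1, and 1555.5 in bdf1Δ+HAL2 and 1127 in bdf1Δ on array 2. The log2 ratios were 0.82 and 0.61 (mean 0.71 ± 0.15, SD of 2 arrays), both above those of every other member on the same array. It was the 1 member past 1.5-fold on both arrays, a threshold passed upwards by 2.25% and downwards by 3.77% of all measured genes. MRPS16 lay at the 97.9th percentile of all measured genes.

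The next members in order were far closer to 0, with arrays that mostly disagreed in sign. MRPL4 (uL29m, a protein at the exit of the polypeptide tunnel) had log2 ratios of −0.07 and 0.16, and MRPL20 (mL58) had −0.12 and 0.20. MRPL33 (uL30m) had 0.26 and −0.20, and MRPL23 (uL13m) had 0.25 and −0.19. MRPL32, MRPL8, MRPL38, MRPS18 and MRP17 followed with means between −0.03 and 0.02. After print-tip loess MRPL4 (−0.04) and MRPL20 (−0.005) lay below 0. The order of these 9 members is not resolved by the spread between arrays.

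At the low end, MRPS8 (uS8m) and MRP8 were below 0 by similar amounts on both arrays. MRPS8 had net intensities of 2220.5 in bdf1Δ+HAL2 and 2417 in bdf1Δ on array 1, and of 911 in bdf1Δ+HAL2 and 1440 in bdf1Δ on array 2. Its log2 ratios were −0.35 and −0.48 (mean −0.42 ± 0.09), at the 8.63th percentile of all measured genes. MRP8 had log2 ratios of −0.46 and −0.35 (mean −0.41 ± 0.08). MRPL6 (uL6m) had a similar mean of −0.39, but its arrays gave −0.11 and −0.67.

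The other members among the lowest 10 ran from −0.27 to −0.24. MRP49 (mL61) had a mean log2 ratio of −0.27 ± 0.12, MRPL51 (mL43) of −0.25 ± 0.06 and MRPS28 (uS15m) of −0.24 ± 0.08. MRPL31 (mL60) had −0.24 ± 0.09, and all 4 of these were below 0 on both arrays. MRPS17 (uS17m, −0.27 ± 0.21), MRPL19 (uL11m, −0.24 ± 0.29) and MRPL24 (bL28m, −0.24 ± 0.18) were also below 0 on both arrays, with wider spreads.

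In bdf1Δhda1Δ over bdf1Δ, again no member was past 2-fold on both arrays, and most of the measured members lay slightly above 0. Over all measured genes 1.06% were higher and 0.627% lower by that rule, so the count of 0 among 19 members is near the background. The median log2 ratio of the members was 0.09, with a median of 0.08 on array 1 and 0.09 on array 2, and 15 of 19 lay above 0. Over all 2074 measured genes the median was 0.007 and 51.5% lay above 0. The 37 members not measured here have no value, so these counts do not describe the group as a whole.

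The arrays of this pair followed each other closely. Of the 19 members 14 lay above 0 on both arrays, 1 lay below 0 on both, and 4 had opposite signs. As shares these were 73.7%, 5.26% and 21.1% of the members, against 38.3%, 36.5% and 25.3% of all genes. The correlation between arrays was 0.85 over the 19 members and 0.87 over all 2074 genes, and the members' median SD was 0.07. After print-tip loess the median log2 ratio of the members was 0.11, with 13 members above 0 on both arrays. That was 68.4% of the members, against 38.8% of all genes. The median was 0.05 for 9 large subunit members and 0.15 for 9 small subunit members.

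MRPS16 was again the member farthest above 0. Its net intensity was 1030 in bdf1Δhda1Δ and 343 in bdf1Δ on array 1, where the bdf1Δ channel exceeded background in 1 of its 3 spots, and 1321.5 in bdf1Δhda1Δ and 927 in bdf1Δ on array 2. The log2 ratios were 1.06 and 0.63 (mean 0.84 ± 0.30), so array 1 alone was past 2-fold. It was the 1 member past 1.5-fold on both arrays, as were 2.84% of all measured genes upwards and 2.31% downwards. Where both channels had to exceed background MRPS16 had no value, so this call rests on a weak bdf1Δ signal on array 1.

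MRPL3 came next. It encodes mL44, a large subunit protein with a fold related to RNase III. Its log2 ratios were 0.68 and 0.50 (mean 0.59 ± 0.12), at the 96.4th percentile of all measured genes. Net intensities of MRPL3 were 1424 in bdf1Δhda1Δ and 655 in bdf1Δ on array 1, and 1789 in bdf1Δhda1Δ and 1436.5 in bdf1Δ on array 2.

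The members after MRPL3 were closer to 0. MRPL19 (uL11m, of the stalk base where translation factors bind) had a mean log2 ratio of 0.30 ± 0.07. MRPL49 (bL21m) and MRP51 (bS1m) both had 0.21, with an SD of 0.06 for MRPL49 and of 0.08 for MRP51. MRPS17, MRP1, MRP13, MRPS9 and MRPL38 ranged from 0.09 to 0.18, all above 0 on both arrays.

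After global loess the lowest members did not reach −0.1 in the mean, while MRP8 had −0.17 after print-tip loess. MRP20 (uL23m, at the tunnel exit) had a mean log2 ratio of −0.06 ± 0.16, MRP8 of −0.05 ± 0.01 and MRPL16 (uL16m) of −0.04 ± 0.14. MRPS8 had −0.01 ± 0.13, with arrays of opposite sign, and 0.02 after print-tip loess. MRPS18 (uS11m), MRPL8, MRPL7, MRPL28, MRPS12 and MRPL38 lay between 0.003 and 0.09, and of these MRPS18 was below 0 after print-tip loess (−0.02).

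The 19 members measured everywhere allow the comparisons against bdf1Δ to be set side by side. They share bdf1Δ as their reference strain, so they are not independent of each other. MRPS16 had mean log2 ratios of 0.71 in bdf1Δ+HAL2 and 0.84 in bdf1Δhda1Δ, each over bdf1Δ. MRPL3 had −0.11 ± 0.31 in bdf1Δ+HAL2 and 0.59 ± 0.12 in bdf1Δhda1Δ. MRPL19 had −0.24 ± 0.29 in bdf1Δ+HAL2 and 0.30 ± 0.07 in bdf1Δhda1Δ. For MRPL3 and MRPL19 both arrays of bdf1Δhda1Δ lay above both arrays of bdf1Δ+HAL2, which was not particular to them. After global loess it also held for MRP8, MRPS8, MRPS17, MRP51, MRPL49, MRPS9, MRP1, MRP13, MRPL38 and MRPS12. The share over all genes was not computed, so it is not read as a trait of these members.

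MRPS17 had a mean log2 ratio of −0.27 in bdf1Δ+HAL2 and 0.18 in bdf1Δhda1Δ. MRP51 had −0.20 in bdf1Δ+HAL2 and 0.21 in bdf1Δhda1Δ, and MRPL49 had −0.15 in bdf1Δ+HAL2 and 0.21 in bdf1Δhda1Δ. MRP8 had −0.41 ± 0.08 in bdf1Δ+HAL2 and −0.05 ± 0.01 in bdf1Δhda1Δ. After print-tip loess MRP8 had −0.30 in bdf1Δ+HAL2 and −0.17 in bdf1Δhda1Δ. MRPS8 had −0.42 ± 0.09 in bdf1Δ+HAL2 and −0.01 ± 0.13 in bdf1Δhda1Δ. After print-tip loess MRPS8 had −0.30 in bdf1Δ+HAL2 and 0.02 in bdf1Δhda1Δ. No array set bdf1Δ+HAL2 against bdf1Δhda1Δ, so the difference between those strains was not tested.

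**Figure D3:**
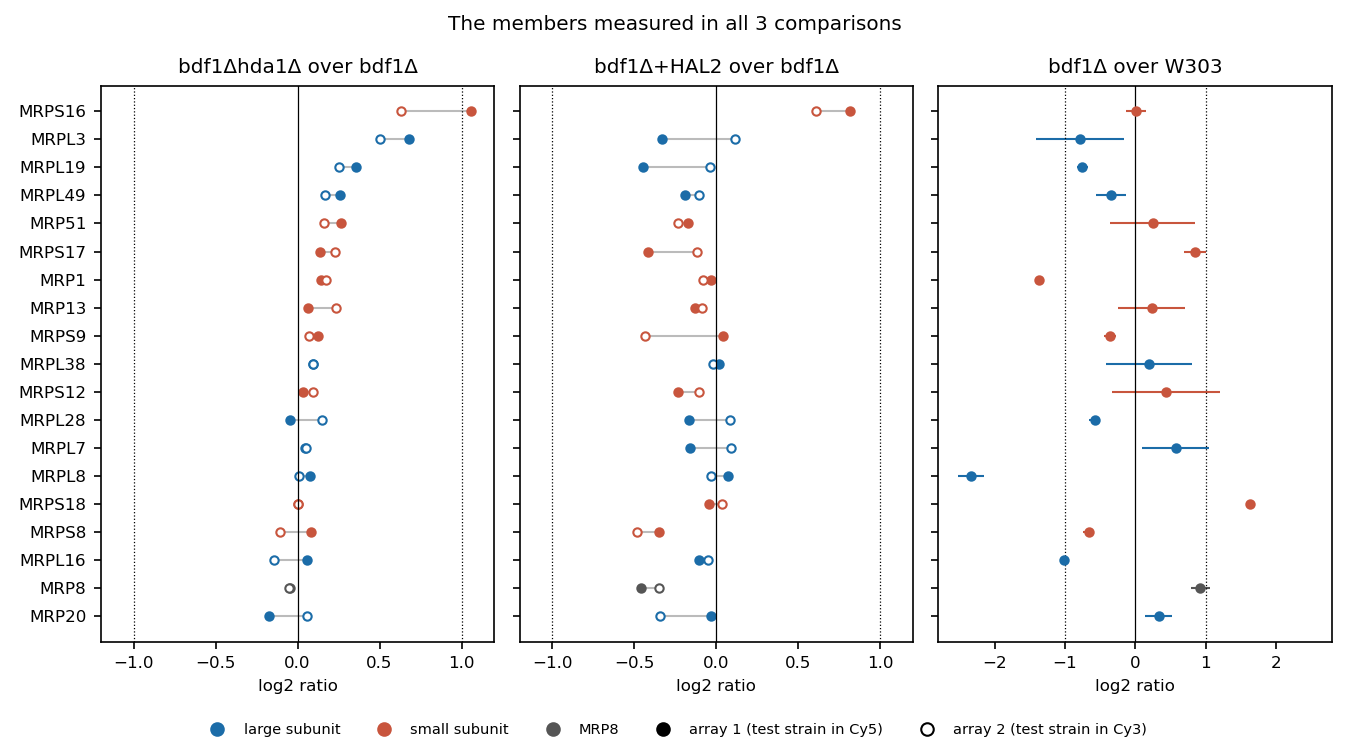
Log2 ratio of the 19 members measured in all 3 comparisons, in the order of bdf1Δhda1Δ over bdf1Δ; in the first and middle panels filled points are array 1 and open points array 2, and in the last panel the bar is the SD of repeat spots on its single array, after global loess. MRPS16 leads both comparisons against bdf1Δ and lies at 0.01 in bdf1Δ over W303, where print-tip loess gives −1.43.

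In bdf1Δ over W303, 4 members were higher and 8 lower by more than 2-fold after global loess. Most of these calls were not made after print-tip loess, and the cause was not tested. The 4 higher members are 8.89% of the 45 measured, against 15.9% of all measured genes, and the 8 lower members are 17.8%, against 18.4%. The share lower is near the background. The median log2 ratio of the members was 0.007, with quartiles of −0.75 and 0.53, and that of all measured genes was −0.002 with quartiles of −0.70 and 0.68. After print-tip loess 1 member was higher and 3 were lower, while 5.94% of all genes were higher and 6.18% lower. A single member, MRPL51, was called by both normalizations.

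The position of the members on the slide went with their ratios on this array. They lay in 28 of the 48 printing blocks, and the median ratio of all genes in those blocks ran from −1.002 to 1.48. The ratio of a member correlated with the median of its block (Pearson's r = 0.66, n = 45). The ratios after global and print-tip loess correlated at 0.43 over the members, which share the slide, and had the same sign in 26 of 45.

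Signal in bdf1Δ was weak. The bdf1Δ channel exceeded background in 47.6% of the members' spots, against 36.9% of all gene spots, while W303 did so in 97.0% of the members' spots. Of the 45 measured members 20 were not well above background in bdf1Δ, among them 6 of the 8 lower ones. Over the 25 members with both channels above background, the median log2 ratio was 0.44, close to that of 0.42 over all genes filtered in that way.

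MRPL51 (mL43) had a net intensity of 294.5 in bdf1Δ and 304.5 in W303, which after normalization was a log2 ratio of 1.78 ± 0.03 (SD of repeat spots). It was higher after both normalizations, with 1.19 after print-tip loess. MRPS18 (uS11m) had net intensities of 507 in bdf1Δ and 514 in W303 and a log2 ratio of 1.63 ± 0.02, or 0.74 after print-tip loess. MRPL33 (uL30m) had a log2 ratio of 1.25 ± 0.29, or 0.81 after print-tip loess. MRPL40 (uL24m, near the tunnel exit) had 1.04 ± 0.40, or 0.68 after print-tip loess. The 4 genes gave nearly equal or weaker raw signal in bdf1Δ than in W303, and are higher in relation to the typical gene of that array only.

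MRPL8 (bL17m, a protein near the tunnel exit) was the member farthest below 0. Its net intensity was 56 in bdf1Δ, where no spot exceeded background, and 1890 in W303. The log2 ratio was −2.34 ± 0.19, and W303 was at least 4.94-fold higher after global loess. This bound takes as the level in bdf1Δ the signal of the spots themselves or, where larger, the weakest signal that exceeded background. It does not hold after print-tip loess, where the log2 ratio was −0.18.

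MRPL37 (mL54) and MRP1 (mS43) were the lower members with all 3 spots above background in bdf1Δ. MRPL37 had net intensities of 253 in bdf1Δ and 2309 in W303 and a log2 ratio of −1.64 ± 0.08, or −0.60 after print-tip loess. MRP1 had net intensities of 177 in bdf1Δ and 1766 in W303 and a log2 ratio of −1.36 ± 0.01, which turned to 0.25 after print-tip loess.

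The other lower members were not well above background in bdf1Δ. MRPL13 (mL50) had a log2 ratio of −1.36 ± 0.39 after global loess and −0.97 after print-tip loess. MRPL6 (uL6m) had −1.30 ± 0.09, with W303 at least 1.71-fold higher, after global loess, and −0.17 after print-tip loess, where that bound does not hold. MRPL39 (bL33m, −1.10 ± 0.06), MRPL16 (uL16m, −1.01 ± 0.07) and MRPL27 (mL41, −1.002 ± 0.18) changed sign after print-tip loess, to 0.06 for MRPL39, 0.54 for MRPL16 and 0.10 for MRPL27. After global loess alone, W303 was at least 1.62-fold higher for MRPL39 and at least 1.495-fold higher for MRPL27. For MRPL13 and MRPL16 the level of the spots themselves was the larger one, so the measured ratio is given with no separate bound.

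The 3 members that were lower after print-tip loess were MRPL44 (mL53), MRPS16 and MRPS8. MRPL44 had net intensities of 140.5 in bdf1Δ and 851 in W303 and a log2 ratio of −0.55 ± 0.29 after global loess, against −1.48 after print-tip loess. MRPS16 had net intensities of 318 in bdf1Δ and 1078 in W303, and log2 ratios of 0.01 ± 0.14 after global loess and −1.43 after print-tip loess. All genes of its printing block had a median of 1.48. MRPS8 had −0.66 ± 0.08 after global loess and −1.04 after print-tip loess.

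**Figure D4:**
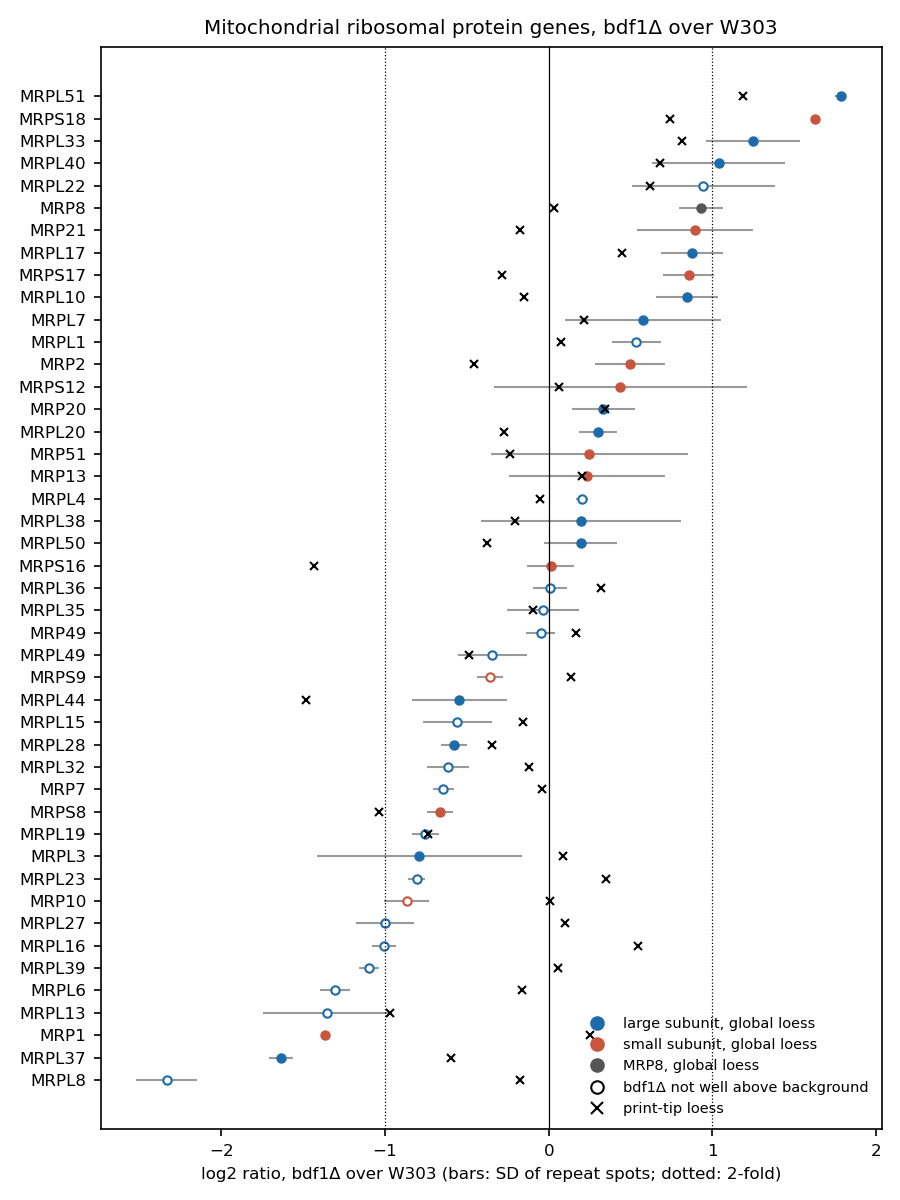
Log2 ratio of bdf1Δ over W303 for the 45 measured members, as circles with the SD of repeat spots after global loess, and as crosses after print-tip loess; open circles mark genes not well above background in bdf1Δ and dotted lines mark 2-fold. Circles run from −2.34 (MRPL8) to 1.78 (MRPL51), and circle and cross lie on the same side of 0 in 26 of the 45 members.

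The medians of the subunits lay farther apart on this array after global loess than after print-tip loess. The median log2 ratio was −0.20 for 32 large subunit members and 0.24 for 12 small subunit members after global loess, and −0.05 for large and −0.09 for small after print-tip loess. By origin, the medians were 0.44 for 19 universal and −0.56 for 15 mitochondrial members after global loess. They were 0.07 for universal and 0.007 for mitochondrial members after print-tip loess. The median of the bacterial members was below 0 after both normalizations. MRP8 had a log2 ratio of 0.93 ± 0.13 after global loess and 0.03 after print-tip loess.

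Genes of related function give the setting for these values. The 23 other mitochondrial ribosomal proteins have symbols that do not follow the MRP pattern. In both comparisons against bdf1Δ their medians had the same sign as those of the members. Their median log2 ratio was −0.09 in bdf1Δ+HAL2 over bdf1Δ, where 5 of 20 lay above 0. It was 0.14 in bdf1Δhda1Δ over bdf1Δ, where 6 of 8 lay above 0, and none of them was past 2-fold in either comparison. YML6 (uL4m) had −0.31 ± 0.10 in bdf1Δ+HAL2 and 0.24 ± 0.08 in bdf1Δhda1Δ, each over bdf1Δ.

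In bdf1Δ over W303 these other ribosomal proteins had a median of 0.08 after global loess and −0.02 after print-tip loess. After global loess 2 of 20 were higher and 4 lower, while 15.9% of all measured genes were higher and 18.4% lower. These counts are near the background. IMG1 (bL19m) had a log2 ratio of 1.23 ± 0.20 and MNP1 (bL12m) of 1.15 ± 0.20, or 1.01 for IMG1 and 0.28 for MNP1 after print-tip loess. The lower genes were NAM9, RSM7, RSM26 and RTC6. NAM9 (uS4m) had −2.73 ± 0.13, or −0.44 after print-tip loess, and RSM7 (uS7m) had −2.09 ± 0.18, or 0.09 after print-tip loess. RSM26 had −1.67 ± 0.14, or −0.27 after print-tip loess, and RTC6 (bL36m) had −1.45 ± 0.11, or −0.99 after print-tip loess. After print-tip loess 1 of the 20 was higher and none was lower, while 5.94% of all genes were higher and 6.18% lower.

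The factors that work with the mitochondrial ribosome formed a list of 39 genes, which holds translation factors, tRNA synthetases, assembly factors, translational activators and genes of mitochondrial transcription. In bdf1Δ+HAL2 over bdf1Δ their median log2 ratio was −0.07, with 6 of 20 above 0 and none past 2-fold. MEF1 (an elongation factor G) had −0.42 ± 0.08 and TUF1 (elongation factor Tu) −0.36 ± 0.03. MEF2, the paralogue of MEF1, had 0.42 ± 0.20. Where both channels had to exceed background, 19 genes of the list were measured and the highest value was 0.19. The value of MEF2 thus does not stand under that filter. In bdf1Δhda1Δ over bdf1Δ the median was 0.04 over 7 genes. The highest were MEF1 (0.46 ± 0.06), MSS51 (translational activator of COX1, 0.39 ± 0.11) and TUF1 (0.30 ± 0.08). Every other measured gene of the list lay at or below the median.

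In bdf1Δ over W303 the list of factors had a median of 0.12 after global loess and −0.29 after print-tip loess. After global loess 4 of 21 were higher and 2 lower, while 15.9% of all measured genes were higher and 18.4% lower. The share higher is near the background. ISM1 (isoleucyl-tRNA synthetase) had 1.93 ± 0.27 and 1.55 after print-tip loess. MTF1 (a transcription factor of the mitochondrial RNA polymerase) had 1.36, or −0.05 after print-tip loess, and MBA1 had 1.17, or −0.29 after print-tip loess. PET54 (a translational activator of COX3) had 1.01, or 0.23 after print-tip loess. TUF1 had −1.90 ± 0.14, or −0.38 after print-tip loess. MTG1, a GTPase of large subunit assembly, had −1.14 ± 0.30, or −1.10 after print-tip loess.

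The nuclear genes of the respiratory chain and ATP synthase, whose complexes take up the products of mitochondrial translation, lay below 0 in both comparisons against bdf1Δ. Their median log2 ratio was −0.21 in bdf1Δ+HAL2 over bdf1Δ, with 4 of 37 above 0, and none was past 2-fold on both arrays. In bdf1Δhda1Δ over bdf1Δ it was −0.25, with 4 of 28 above 0, where the median of the members was 0.09. SDH1 (a subunit of succinate dehydrogenase) was the 1 gene past 2-fold there, with log2 ratios of −1.13 and −1.12. Of all measured genes 0.627% were lower by that rule. In bdf1Δ over W303 the median of this list was −0.36, with 6 of 33 higher and 11 lower. After print-tip loess it was 0.03, with 3 higher and 4 lower. Of all measured genes 15.9% were higher and 18.4% lower after global loess, and 5.94% higher and 6.18% lower after print-tip loess.

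The proteins of the cytosolic ribosome, which translates nuclear genes, were set beside the members. Their median log2 ratio was 0.10 in bdf1Δ+HAL2 over bdf1Δ, with 108 of 136 above 0, against −0.13 for the members. In bdf1Δhda1Δ over bdf1Δ it was −0.003, with 66 of 136 above 0, against 0.09 for the members. With median centring and no loess the cytosolic median was 0.006, with 70 of 136 above 0, in bdf1Δ+HAL2 over bdf1Δ, where the members had −0.11. In bdf1Δhda1Δ over bdf1Δ it was then −0.09, with 35 of 136 above 0, where the members had 0.09. None was past 2-fold in either comparison after global loess. In bdf1Δ over W303 the cytosolic median was −1.03 with 4 of 132 higher and 68 lower. After print-tip loess it was −0.20 with 3 higher and 14 lower. Of all measured genes 15.9% were higher and 18.4% lower after global loess, and 5.94% higher and 6.18% lower after print-tip loess. The median of the members was 0.007 after global loess and −0.04 after print-tip loess. Many cytosolic ribosomal protein genes are present in near-identical pairs, and their probes may read both copies.

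**Figure D5:**
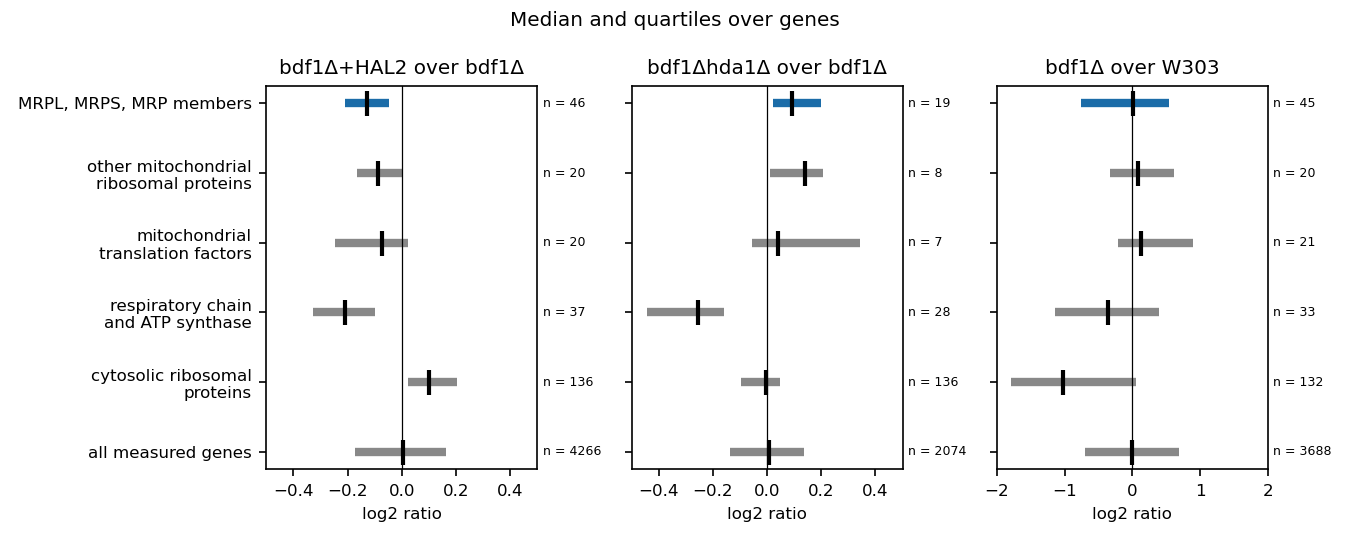
Median (tick) and quartiles (bar) of the log2 ratio over the genes of each list and over all measured genes in the 3 comparisons after global loess, with the number of measured genes beside each bar; the scale of the last panel is wider. The members' medians are −0.13, 0.09 and 0.007 from left to right.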

How the data were processed

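The members, the lists and the alternatives were chosen with earlier results of these data known. The files deposited from the scanner give spot intensity and local background intensity at 635 nm and 532 nm, per the file headers. The authors' deposited table holds a linear ratio per probe. All 5 of its columns ran as tested strain over reference when set against the scanner values (r from 0.76 to 0.95), with column medians of 1.01 and 0.99 for bdf1Δ+HAL2, 1.04 and 1.01 for bdf1Δhda1Δ, and 0.195 for bdf1Δ over W303, which is thus not centred. The centring of the other columns is unknown. Image software, genome build and the authors' normalization were not given in the sources used here.

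Spot medians were corrected with background medians by normexp (offset 50). Global loess was then run on each array, with weight 0 for controls and undetected spots (limma 3.58.1, R 4.3.3). The sign was turned where the tested strain was in Cy3. A spot was used when found and over background by 2 background SDs in at least 1 channel. A gene needed 2 of 3 such spots on every array, and saturated spots were kept. Calls required more than 2-fold in the same direction on every array, the rule the labels state. With 1 biological replicate per comparison no test was run, and precision is limited by the number of arrays. The calling steps were tested on a simulated dye-exchanged pair, with no effect of printing block added to the ratios. That simulation does not cover the single array of bdf1Δ over W303. Of the 6388 gene probes 5849 matched the R64 gene table, which gave symbols and ribosomal protein names. MRP35 was placed in the large subunit by that name. Genes were named from members past 2-fold, the 10 highest and 10 lowest of each comparison, MRP8 and the members measured in all 3 comparisons. In each list they were drawn from the genes past 2-fold and the 3 highest and 3 lowest. MRPL44 in bdf1Δ over W303 is named for its call after print-tip loess, once its value was seen. Alternatives were print-tip loess, median centring, no background correction, other spot filters, a 1.5-fold threshold, single arrays and the authors' ratio. Tables and plots were made in Python 3.11.15 with pandas 2.3.3, NumPy 2.4.6 and matplotlib 3.10.9.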

Additional observations from a re-analysis of the deposited data

How the results depend on the processing

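The members' median log2 ratio kept its sign and moved by less than the spread between arrays under every alternative run for bdf1Δ+HAL2 over bdf1Δ (from −0.15 to −0.11) and for bdf1Δhda1Δ over bdf1Δ (from 0.08 to 0.11). At 1.5-fold, 1 member was higher in each of these comparisons (MRPS16 in both), but MRPS16 has no value in bdf1Δhda1Δ over bdf1Δ when both channels must exceed background. On single arrays, the number of members higher in bdf1Δhda1Δ over bdf1Δ ran from 0 to 1, the 1 being MRPS16 without array 2, and stayed at 0 in bdf1Δ+HAL2 over bdf1Δ. In bdf1Δ over W303, where the 4 higher and 8 lower members rest on 1 array, print-tip loess left 1 higher and 3 lower (5.94% and 6.18% of all genes), median centring gave 8 higher (20.7% of all genes), no background correction gave 5 lower (15.9%), and a 1.5-fold threshold gave 10 higher and 15 lower (27.4% and 28.8%). Requiring both channels above background gave a median of 0.44 with 2 lower, over 25 members (13.2% of all genes lower), since it removes genes dim in bdf1Δ. The authors' deposited ratio gave a median of −2.46 with 0 higher and 37 lower (0.842% and 78.0% of all genes), by construction, as its column is not centred. In it the ratios of MRPL51 (−0.012), MRPS18 (−0.020), MRPL33 (−0.26) and MRPL40 (−1.73) reversed. Print-tip loess reversed MRPL27 (0.10), MRPL16 (0.54), MRPL39 (0.057) and MRP1 (0.25), and the cause was not tested. It kept the sign of 41 of 46 members in bdf1Δ+HAL2 over bdf1Δ, 17 of 19 in bdf1Δhda1Δ over bdf1Δ and 26 of 45 in bdf1Δ over W303. No paired analysis was possible because each comparison has 1 biological replicate and no result comes from a test. Signal over background limits bdf1Δ over W303, where bdf1Δ was not well above background for 20 of 45 members, and the finding of spots limits bdf1Δhda1Δ over bdf1Δ, where 37 of 56 members had no value.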
